A study of Mus musculus with 12 samples.

Results

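The integrated stress response (ISR) genes described here were 9 genes of 21911 protein-coding genes in the annotation: Atf5, Atf4, Ddit3, Trib3, Ppp1r15a, Sesn2, Asns, Chac1 and Fgf21. Acetylation of histone H3 at lysine 9 (H3K9ac) was mapped in 6 adult mouse livers by ChIP-seq, the sequencing of chromatin recovered with an antibody, and 1 list of peaks was deposited per liver. There were 2 livers of C57BL/6J (B6) and 2 of MSM/Ms (MSM). The hybrids of reciprocal crosses between these strains had 1 liver each, labelled BM (F1 BM) and MB (F1 MB). The sample titles do not say which parent was the mother. The reference genome is that of B6, while the MSM strain was bred from wild mice of Japan. The labels name no treatment or altered gene for any group, the 2 livers of a strain came from different mice, and the hybrids had 1 mouse each, so their values have no replicate error. Reads of all groups were mapped to the B6 reference, and the hybrid lists do not separate the parental alleles.

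For each gene, all peaks were collected that overlapped its gene body or the 5 kb on either side of its start in the GENCODE M21 annotation of mm10. The set was chosen by the upstream reach of Atf5, because the acetylated domain at its start extended further upstream in B6 than in MSM. The margin, between the lowest B6 and the highest MSM value, was the widest of the genes compared. These were the genes with a domain at the start in all 4 parental libraries, with peaks up to 500 bp apart joined. The upstream reach and the covered length of Atf5 are therefore given as a description and were not tested. Of the 9 genes, 6 had a peak in this region in all 6 libraries, 8 had a peak in at least 1 library, and Asns had none. The region peaks numbered 20 of 22968 in B6 replicate 1, 14 of 11619 in B6 replicate 2, 15 of 17310 in MSM replicate 1, 20 of 17584 in MSM replicate 2, 23 of 20173 in F1 BM and 14 of 13235 in F1 MB.

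The ISR starts when kinases that sense amino acid shortage, misfolded protein in the endoplasmic reticulum (ER), heme shortage or double-stranded RNA phosphorylate the translation factor eIF2 alpha. General translation then falls, while the mRNAs of the basic leucine zipper (bZIP) factors ATF4 and ATF5, which carry short upstream reading frames, are translated more. ATF4 with partners of the C/EBP family activates genes for amino acid supply, feedback and cell death, and in liver also the secreted hormone FGF21. H3K9ac marks the starts of transcribed genes and active enhancers, and it is not a measure of RNA or protein.

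The 6 lists differed in length, which bears on each count of peaks given here. B6 replicate 1 had the longest list, with 16.0 Mb under peaks, and B6 replicate 2 the shortest, with 6.28 Mb. The lists of MSM replicates 1 and 2 lay between them, with 9.66 and 9.69 Mb. Over 5186 promoters with a domain at the start in all 4 parental libraries, the median upstream reach was 517 and -7 bp in the B6 replicates and 107 and 97 bp in the MSM replicates. The spread between the B6 libraries thus exceeded the difference between the strains. Of the hepatocyte genes Alb, Apoa1, Ttr, Cps1 and Hnf4a, the first 4 had a peak within 1 kb of the start in every library. No start of 3 Kupffer cell, 3 bile duct, 3 T and B cell, 3 skeletal muscle or 3 neuron markers had a peak in any library. Of 3 sinusoidal endothelium markers, the number with a start peak ranged from 0 (B6 replicate 2 and F1 MB) to 3 (MSM replicate 2 and F1 BM), and of 3 stellate cell markers only Colec11 had a start peak, in F1 BM. The part of cell type in the results was not tested.

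Peaks at the starts were counted first. The bZIP factor genes Atf5 and Atf4 and the feedback genes Trib3, Ppp1r15a and Sesn2 had a peak within 1 kb of the start in all 6 libraries, 5 of the 9 genes. Ddit3, also a bZIP factor gene, had such a peak in all libraries except F1 MB. Chac1, a metabolic output, had it in 3 libraries, and Asns and Fgf21 had it in none. Per library 6 or 7 of the 9 genes had a start peak. Over all protein-coding genes 23.6% had a start peak in all 6 libraries and 54.2% in none.

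The members were then ordered by the highest peak at the start. The deposited fold enrichment of a peak, a ratio over the background of the authors' peak caller, cannot be set against that of another library, so each was placed as a percentile within its own list. Atf4 lay between the percentiles 92.7 and 97.8 and was first of the members in 5 libraries. Ppp1r15a lay between 84.0 and 97.6 and was first in MSM replicate 2. Atf5 lay between 86.2 and 95.5. These 3 genes took the first 3 places in each of the 6 libraries. Ddit3 (23.1 to 82.3), Trib3 (20.6 to 76.5), Sesn2 (10.5 to 67.8) and Chac1 (40.2 to 58.1) had no place among the first 3 in any library, and the order of these 4 changed between libraries.

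Atf5 encodes a bZIP factor of the ATF4 family, known in the mitochondrial branch of the stress response and abundant in liver. The gene (ENSMUSG00000038539.15) lies on the minus strand at chr7:44812256-44816658 in mm10. The start is shared with genes that run the opposite way, namely Il4i1, for an amino acid oxidase, whose start lies 271 bp downstream of the Atf5 start, and Nup62, for a protein of the nuclear pore, whose start lies 570 bp downstream. All sequence upstream of Atf5 named here therefore lies in introns of Il4i1 and Nup62, and the position of a peak does not tell which of the 3 genes it belongs to.

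The peak at the Atf5 start ran, relative to the start and with negative values upstream, from -1560 to 579 bp in B6 replicate 1 and from -1661 to 376 bp in B6 replicate 2. In MSM its limits were -265 and 359 bp (replicate 1) and -241 and 380 bp (replicate 2). Both B6 peaks thus spanned more than a kilobase of upstream sequence at which both MSM peaks had ended. In F1 BM it ran from -1585 to 464 bp, close to the B6 peaks, and in F1 MB from -520 to 402 bp, closer to the MSM peaks. The summit lay in the untranslated region of the first exons, 181 to 235 bp downstream of the start, in 5 libraries and at -272 bp, in the introns of Il4i1 and Nup62, in B6 replicate 2. Fold enrichment at the summit was 10.8 and 8.48 in B6, 7.95 and 9.78 in MSM, 5.62 in F1 BM and 7.05 in F1 MB. Within their own lists these peaks lay at the percentiles 90.9 and 95.5 in B6, 86.6 and 92.9 in MSM, 89.5 in F1 BM and 86.2 in F1 MB. By percentile, B6 and MSM overlapped.

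A separate peak lay further upstream in all 6 libraries, MSM included. In B6 replicate 1 it ran from -3349 to -1819 bp and in B6 replicate 2 from -3177 to -2416 bp. In MSM replicate 1 it ran from -3330 to -2444 bp and in MSM replicate 2 from -3260 to -2467 bp. In F1 BM it ran from -3354 to -2129 bp and in F1 MB from -2924 to -2309 bp. Its fold enrichment was 5.88, 3.52, 5.54, 5.42, 5.08 and 2.26 in the same order of libraries. This peak of F1 MB was near the limit of its list, with a −log10 q of 1.40. It was lost there at a −log10 q of at least 2 and with 11619 peaks in every list. With 6.28 Mb under peaks in every list, it was lost in F1 MB and in B6 replicate 1. There only the start peaks were left, with 923 and 2140 bp, while both MSM libraries kept the far peak.

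**Figure D1:**
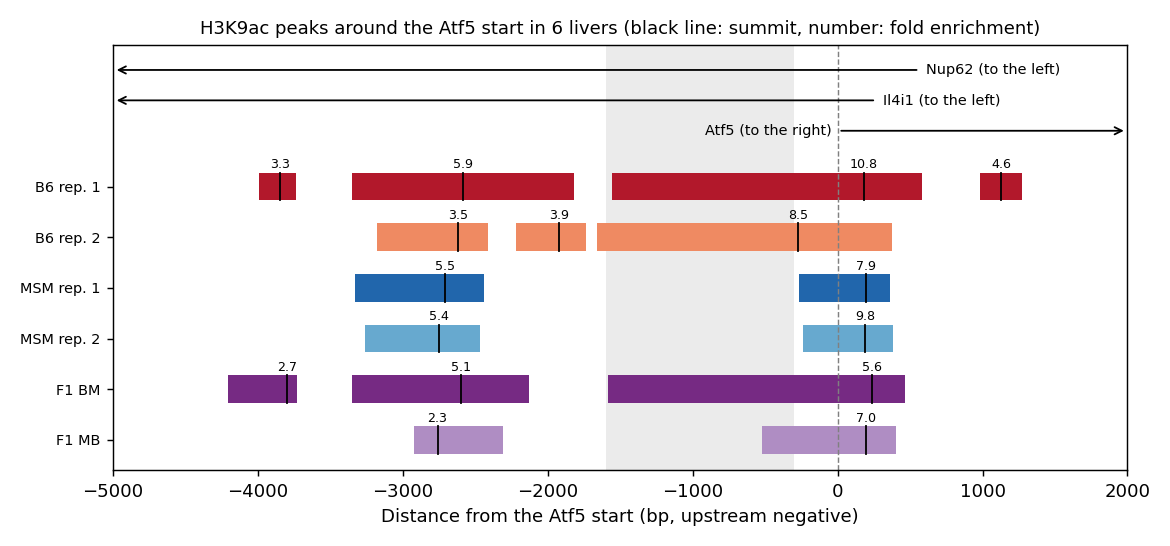
H3K9ac peaks around the Atf5 start, with position relative to the start in bp on the x axis and a row for each of the 6 libraries. Bars are peaks, black lines their summits and the numbers above them the deposited fold enrichment, arrows give the direction of Atf5, Il4i1 and Nup62, and the shaded stretch from -1600 to -300 bp is under peaks in B6 (96.9 and 100%) and F1 BM (98.8%), in part in F1 MB (17.0%) and not in MSM (0% in both).

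The upstream sequence was then divided by these edges, a division made after the peaks had been seen. The stretch nearest the start (chr7:44816308-44816858, -200 to 350 bp) was under peaks over 100% of its 551 bp in all 6 libraries. The far stretch (chr7:44819058-44820058, -3400 to -2400 bp, 1001 bp) was under peaks over 94.9 and 76.1% in B6, 88.6 and 79.3% in MSM, 95.4% in F1 BM and 52.4% in F1 MB. At neither stretch did B6 and MSM separate. The middle stretch (chr7:44816958-44818258, -1600 to -300 bp, 1301 bp) was under peaks over 96.9 and 100% in B6, 0 and 0% in MSM, 98.8% in F1 BM and 17.0% in F1 MB. Here the B6 and MSM values did not overlap, with a difference of 98.5 percentage points, and F1 BM lay with B6 and F1 MB nearer to MSM. Beyond -3400 bp a further small peak was listed only in B6 replicate 1 and F1 BM, the longest lists.

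The 3 stretches differed in base composition. Sequence was read from the mm10 (GRCm38.p6) reference of RefSeq, which is the B6 sequence, and MSM sequence was not used here. The stretch nearest the start had 69.9% G and C and 64 CpG dinucleotides, the middle stretch 44.5% and 13 CpG, and the far stretch 50.05% and 8 CpG. Bases masked as repeats made up 10.7% of the stretch nearest the start, 24.8% of the middle stretch and 6.69% of the far stretch, against 34.5% of chromosome 7. The part of repeats and of mapping to the B6 sequence in the difference at the middle stretch was not tested. Sequence from directly before the start and a piece of the middle stretch are shown on the Atf5 strand, 5′ to 3′, so that the core under peaks in all libraries and the stretch under peaks in B6 can be compared. The former, chr7:44816659-44816899, runs from -241 to -1 bp, under a peak in all 6 libraries, and extends beyond the stretch nearest the start whose composition is given above. The latter, chr7:44817459-44817758, is from the centre of the middle stretch.
Atf5 core upstream of the start: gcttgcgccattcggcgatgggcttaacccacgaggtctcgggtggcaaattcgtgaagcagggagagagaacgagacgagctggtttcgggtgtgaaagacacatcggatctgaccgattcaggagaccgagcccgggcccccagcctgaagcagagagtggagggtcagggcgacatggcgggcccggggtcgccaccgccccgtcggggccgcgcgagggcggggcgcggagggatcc
Atf5 middle stretch: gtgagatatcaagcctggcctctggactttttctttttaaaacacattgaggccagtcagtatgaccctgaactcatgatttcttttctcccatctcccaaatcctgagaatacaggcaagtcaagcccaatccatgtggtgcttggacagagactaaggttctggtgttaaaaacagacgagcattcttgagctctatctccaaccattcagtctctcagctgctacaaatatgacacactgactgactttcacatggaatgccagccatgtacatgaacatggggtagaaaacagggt

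When peaks up to 500 bp apart were joined into domains, the domain at the Atf5 start reached upstream by 3990 and 3177 bp in the B6 replicates, by 265 and 241 bp in the MSM replicates, by 1585 bp in F1 BM and by 520 bp in F1 MB. Both B6 values were far above both MSM values, and the hybrids lay between. Mean reach was 3583.5 ± 574.9 bp (SD, n = 2) for B6 and 253 ± 17.0 bp (SD, n = 2) for MSM, a difference of 3330.5 bp with a pooled SD of 406.7 bp. Part of this difference came from joining, because the far peak was joined to the start peak in B6, directly in replicate 1 and through a peak from -2217 to -1740 bp in replicate 2, and not in MSM or the hybrids. Without joining, the domains reached 1560 and 1661 bp in B6 and 265 and 241 bp in MSM, and the difference was 1357.5 bp. With joining up to 1000 bp, F1 BM reached 4208 bp and the other libraries kept their values.

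Downstream, the Atf5 domain did not separate the strains. It reached into the gene by 1270 and 376 bp in the B6 replicates, by 359 and 380 bp in the MSM replicates, by 464 bp in F1 BM and by 402 bp in F1 MB. B6 replicate 1 stood alone, and the other 5 libraries lay close together. The difference of 453.5 bp was close to the pooled SD of 447 bp (two-sided exact permutation p = 0.667). With 2 libraries against 2, the exact test has 6 assignments and its smallest possible p is 0.333, so no difference of a member could reach the usual threshold of significance.

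The length under peaks in the whole Atf5 region of 10001 bp was 4211 and 3278 bp in B6, 1512 and 1416 bp in MSM, 3752 bp in F1 BM and 1539 bp in F1 MB. Both B6 libraries exceeded both MSM libraries, F1 BM lay between the B6 values and F1 MB just above the MSM values. Mean covered length was 3744.5 ± 659.7 bp (SD, n = 2) for B6 and 1464 ± 67.9 bp (SD, n = 2) for MSM, a difference of 2280.5 bp. With the same total length under peaks in every list, 6.28 Mb, the B6 values were 2140 and 3278 bp, the MSM values did not change, and the difference was 1245 bp. The F1 BM list had 20173 peaks and the F1 MB list 13235. With 11619 peaks in every list, F1 BM had 3276 bp and F1 MB 923 bp under peaks, so the hybrids still differed. Each cross had 1 mouse, and the direction of the cross and the single mouse cannot be told apart.

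The other members were then set beside Atf5 on the same measures. A gene was called when both libraries of a strain were at least 200 bp above both libraries of the other. By covered length 8 of the 9 genes had values. Atf5 met the rule for B6, which follows from the values that chose the set and is no result, and of the other 7 genes 0 were called longer in B6 and 0 longer in MSM. Of 11446 protein-coding genes, 5.5% were called longer in B6 and 2.44% longer in MSM. By upstream reach 5 genes had a domain at the start in all 4 parental libraries, and again Atf5 was called for B6, the call on which the set was chosen, and 0 for MSM. Over 5186 genes these shares were 4.8% and 0.829%, that is 249 and 43 genes. With each library centred on its median they were 139 and 451 genes, and in covered length 1100 and 772 genes in place of 630 and 279, so the balance over all genes depended on the scale between lists. Without B6 replicate 2, the short list, 6 of the ISR genes were called longer in B6, where 66.3% of all genes tested were. These 6 include Atf5, by whose values the set was chosen. Without B6 replicate 1, the long list, 4 of the ISR genes were called longer in MSM, where 45.3% of all genes were. By downstream reach 0 of the 5 were called in either direction, against 5.65% further in B6 and 2.16% further in MSM over all genes. The median difference in covered length, B6 minus MSM, was 123.5 bp over all genes tested. At the 7 ISR genes other than Atf5 the differences ran from -334 bp (Sesn2) to 492.5 bp (Ddit3). The middle one, at Chac1, was 113.5 bp. Apart from the Atf5 values that chose the set, 16 differences were tested, and 2 exceeded the pooled SD, those in the downstream reach of Atf5 and of Ppp1r15a.

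**Figure D2:**
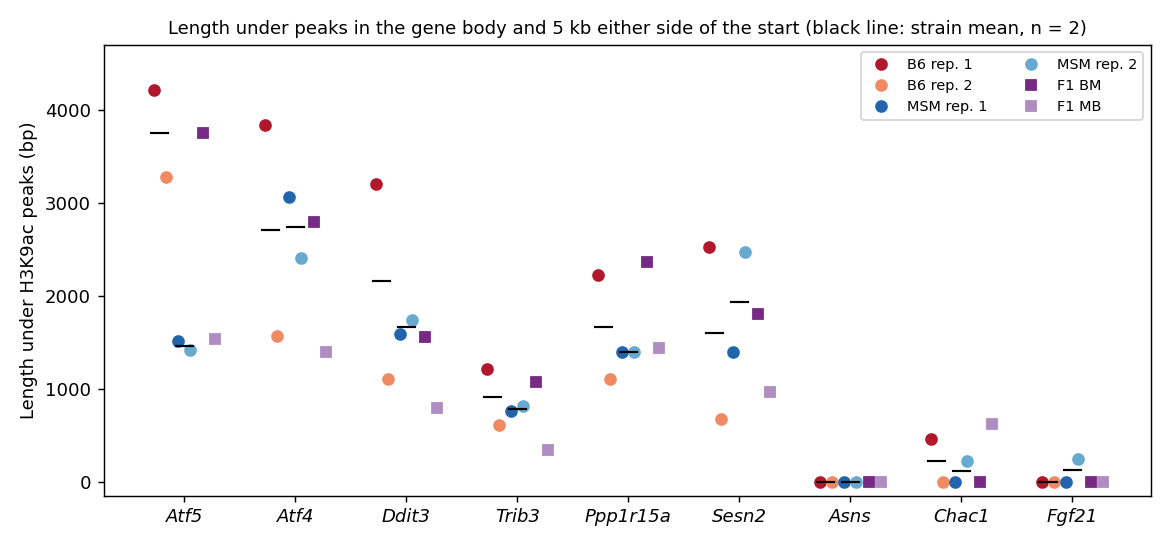
Length under H3K9ac peaks (bp, y axis) in the region of each of the 9 ISR genes (x axis), with a point for each of the 6 libraries and a black line at the mean of each strain (n = 2). At Atf5 the B6 libraries (4211 and 3278 bp) lie above the MSM libraries (1512 and 1416 bp), while at Atf4, Ddit3, Trib3, Ppp1r15a and Sesn2 the MSM values lie within the range of the B6 values.

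Atf4 (ENSMUSG00000042406.8, chr15:80255184-80257541, plus strand) encodes the central transcription factor of the ISR. Acetylation flanked its start on both sides. An upstream peak with a summit between -580 and -427 bp and a peak just inside the gene were present in all 6 libraries, and the latter began between -8 and 20 bp. Between them a stretch of 161 bp, chr15:80255015-80255175 in mm10, was under no peak in any of the 6 libraries. It is printed on the plus strand, 5′ to 3′, as the gap between the listed peaks at this start.
Atf4 gap: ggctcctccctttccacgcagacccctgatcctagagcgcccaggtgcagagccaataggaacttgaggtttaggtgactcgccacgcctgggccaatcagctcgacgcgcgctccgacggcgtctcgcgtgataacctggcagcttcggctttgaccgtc

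The Atf4 domain reached 1027 and 731 bp upstream in B6, 886 and 821 bp in MSM, 775 bp in F1 BM and 715 bp in F1 MB. The MSM values lay between the B6 values, and the difference of 25.5 bp was below the pooled SD of 151.5 bp (two-sided exact permutation p = 1). Downstream it reached 2505 and 1214 bp in B6, 2213 and 2277 bp in MSM, 2295 bp in F1 BM and 1219 bp in F1 MB, so B6 replicate 2 and F1 MB, the shortest lists, ended a kilobase before the others. Length under peaks was 3839 and 1570 bp in B6, 3064 and 2408 bp in MSM, 2791 bp in F1 BM and 1398 bp in F1 MB. The strains differed by -31.5 bp (B6 minus MSM), against a pooled SD of 1181 bp (exact permutation p = 1). A smaller peak with its summit between -4223 and -4111 bp, in an untranslated region of the neighbouring gene Mief1, was listed in B6 replicate 1, both MSM libraries and F1 BM.

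Ddit3 (ENSMUSG00000025408.15, chr10:127290774-127296288, plus strand) encodes CHOP, a bZIP factor linked to cell death in prolonged ER stress. In 5 of the 6 libraries its highest peak was not at its own start but further upstream, in an intron of Mbd6, a gene for a methyl-CpG-binding domain protein that starts at -1756 bp and runs the opposite way. The summit of this upstream peak lay between -2464 and -2317 bp in the 6 libraries, and its fold enrichment was 16.3 in B6 replicate 1, 6.60 in B6 replicate 2, 10.9 in MSM replicate 1, 4.41 in MSM replicate 2, 6.28 in F1 BM and 8.04 in F1 MB. In MSM replicate 2 the peak at -611 bp was higher, with a fold enrichment of 5.47. Nearer to the start, a peak with its summit between -676 and -582 bp was listed in all libraries except F1 MB, and a peak 230 to 242 bp downstream of the start was listed in B6 replicate 1 and both MSM libraries. Length under peaks was 3206 and 1108 bp in B6, 1592 and 1737 bp in MSM, 1553 bp in F1 BM and 790 bp in F1 MB. Both MSM values lay between those of B6, with a difference of 492.5 bp and a pooled SD of 1052 bp (two-sided exact permutation p = 1). B6 replicate 2 had no domain within 500 bp of the start, so the reach of Ddit3 was not compared.

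Trib3 (ENSMUSG00000032715.9, chr2:152337422-152344032, minus strand) encodes a pseudokinase that is induced by ATF4 and CHOP and in turn restrains ATF4. The peak over or next to its start was 258 to 1209 bp wide. The domain reached 546 and 496 bp upstream in B6, 39 and 521 bp in MSM, 606 bp in F1 BM and -27 bp in F1 MB, where the negative value means that it ended before the start. MSM replicate 1 and F1 MB were low and the other 4 libraries alike, and the difference of 241 bp was within the pooled SD of 242.3 bp (two-sided exact permutation p = 0.667). Length under peaks was 1209 and 605 bp in B6, 756 and 812 bp in MSM, 1067 bp in F1 BM and 344 bp in F1 MB. These strain values overlapped (difference 123 bp, pooled SD 303.3 bp, exact permutation p = 1).

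Ppp1r15a (ENSMUSG00000040435.12, chr7:45522916-45526268, minus strand) encodes GADD34, which directs a phosphatase to eIF2 alpha and so ends the response. It shares its start with Plekha4, whose start lies at -62 bp on the opposite strand. The gene body peak began between -1 and 73 bp in all 6 libraries, and a peak in the first intron of Plekha4 was listed in all except B6 replicate 2. Between the 2 starts, the 60 bp of chr7:45526270-45526329 in mm10 were under no peak in any library. They are printed on the minus strand, 5′ to 3′, because they hold a cyclic AMP response element (CRE), marked in capitals.
Ppp1r15a to Plekha4: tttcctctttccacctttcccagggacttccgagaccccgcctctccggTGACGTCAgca

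The downstream edge of the Ppp1r15a domain varied little between the parental libraries. It lay at 1162 and 1163 bp in B6, at 1168 and 1174 bp in MSM, at 1328 bp in F1 BM and at 913 bp in F1 MB. Values of the parental strains did not overlap, but the difference was -8.5 bp (B6 minus MSM; pooled SD 3.04 bp; exact permutation p = 0.333, the smallest possible) and far from the 200 bp of a call. Upstream the domain reached 617 and -61 bp in B6, 463 and 477 bp in MSM, 548 bp in F1 BM and 451 bp in F1 MB, with B6 replicate 2 alone low. Length under peaks was 2222 and 1103 bp in B6, 1400 and 1399 bp in MSM, 2359 bp in F1 BM and 1438 bp in F1 MB. The MSM values lay between the B6 values (difference 263 bp, pooled SD 559.5 bp, exact permutation p = 1).

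Sesn2 (ENSMUSG00000028893.8, chr4:132492032-132510501, minus strand) encodes sestrin 2, an inhibitor of mTORC1 that is known to respond to leucine shortage. Its start peak began downstream of the start in all 6 libraries, with a reach of -55 and -495 bp in B6, -142 and -116 bp in MSM, -115 bp in F1 BM and -170 bp in F1 MB. B6 replicate 2 was the lowest and B6 replicate 1 the highest, so the strains overlapped (difference -146 bp, pooled SD 220.4 bp, exact permutation p = 1). A distal peak outside annotated genes, with its summit between -4827 and -4660 bp, was listed in all 6 libraries, and its fold enrichment was 6.98 and 3.46 in B6, 5.72 and 8.63 in MSM, 4.02 in F1 BM and 4.18 in F1 MB. A further peak lay at the 3′ end of the gene, 18230 to 18245 bp from the start, in B6 replicate 1, both MSM libraries and F1 BM. Length under peaks in the region of 23470 bp was 2527 and 670 bp in B6, 1391 and 2474 bp in MSM, 1805 bp in F1 BM and 962 bp in F1 MB. The difference of -334 bp was below the pooled SD of 1075 bp (exact permutation p = 1).

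**Figure D3:**
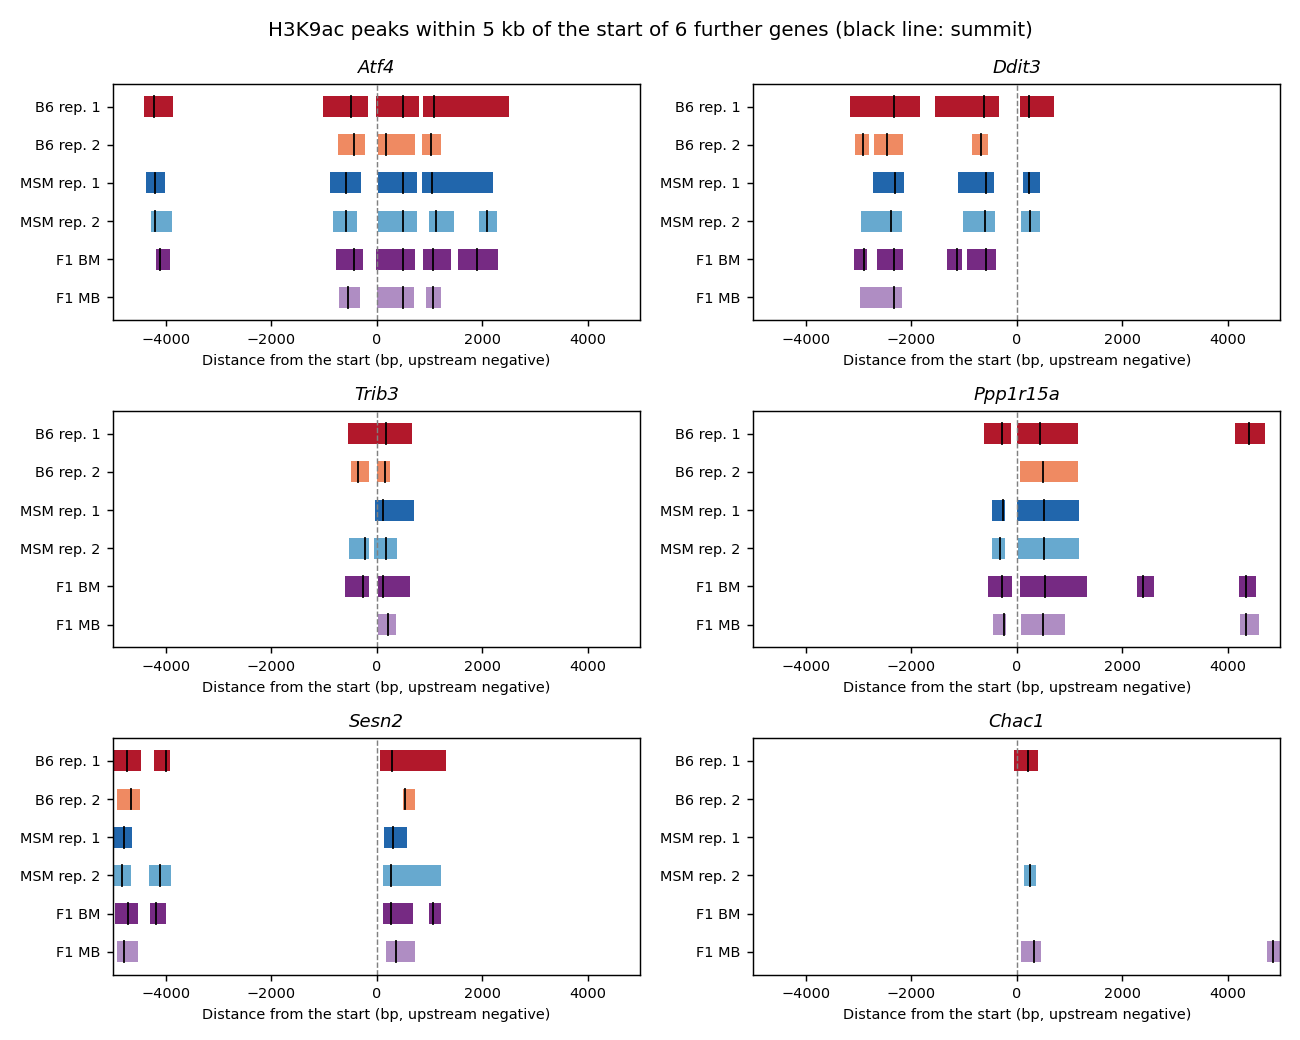
H3K9ac peaks within 5 kb of the starts of Atf4, Ddit3, Trib3, Ppp1r15a, Sesn2 and Chac1, with position relative to each start in bp on the x axis and a row for each of the 6 libraries. Bars are peaks and black lines their summits. Atf4 shows a gap between peaks at the start in all 6 libraries and Ppp1r15a in all except B6 replicate 2, which has no upstream peak, Sesn2 has a distal peak with its summit between -4827 and -4660 bp in all 6, and Chac1 has a start peak in 3 libraries.

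Few peaks were listed at the metabolic and secreted outputs. Asns (ENSMUSG00000029752.12, chr6:7675169-7693254, minus strand), for asparagine synthetase, had no peak in its region of 23086 bp in any of the 6 libraries. Chac1 (ENSMUSG00000027313.3, chr2:119351229-119354381, plus strand), for an enzyme that degrades glutathione, had 454 and 0 bp under peaks in B6, 0 and 227 bp in MSM, 0 bp in F1 BM and 621 bp in F1 MB. Peaks at its start were thus listed in 1 library of each strain and in F1 MB, with a fold enrichment of 4.64, 5.39 and 4.55. Fgf21 (ENSMUSG00000030827.5, chr7:45613886-45615490, minus strand), for the fasting hormone of the liver, had 245 bp under a peak in MSM replicate 2, from 4041 to 4285 bp downstream of the start and beyond the end of the gene, and 0 bp in the other libraries. The start of Fut1, a gene on the opposite strand, also lies in the Fgf21 region, at -1799 bp, and no peak was listed there. The lists hold no read counts, so absence of a peak and a peak below the limit of detection cannot be told apart.

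The promoter windows of the members were then searched for motifs of the ISR. RefSeq promoter windows of 300 bases (GRCm38.p6) matched all 9 genes, and 3 motifs were searched on both strands: the ATF4-C/EBP composite element TGATGNAA, the CRE TGACGTCA and the ER stress response element, which is CCAAT and CCACG with 9 bases between them. The composite element was found in 3.97%, the CRE in 1.79% and the ER stress response element in 0.119% of 32851 windows of this length. The composite element was found in Trib3, Asns, Chac1 and Fgf21, of which Asns and Fgf21 had no start peak, and the CRE in Ppp1r15a. No motif was found in the windows of Atf5, Atf4, Ddit3 and Sesn2, and the start peaks of Atf5 and Atf4 were among the highest of the members. These are matches of letters in these windows and not measured sites. The 4 composite elements are shown with flanks of 11 bases, with the matched element in capitals, on the strand of each gene, 5′ to 3′, at chr2:152344028-152344057 (Trib3, minus), chr6:7693214-7693243 (Asns, minus), chr2:119351038-119351067 (Chac1, plus) and chr7:45615611-45615640 (Fgf21, minus).
Trib3: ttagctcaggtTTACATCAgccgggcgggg
Asns: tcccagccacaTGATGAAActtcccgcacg
Chac1: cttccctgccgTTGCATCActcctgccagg
Fgf21: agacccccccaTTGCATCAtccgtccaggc

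The wider pathway was taken as a list of 79 genes of the ISR and the neighbouring ER and mitochondrial stress responses. Of these, 44 had a start peak in all 6 libraries and 13 in none, where 23.6% of all genes had it in all 6 and 54.2% in none. Each of the 4 eIF2 alpha kinase genes, 8 genes of eIF2 and eIF2B subunits and 4 other phosphatase genes had a start peak in at least 1 library. All 12 aminoacyl-tRNA synthetase genes did so too, 6 of them in all 6 libraries. Of the 10 genes of the other ER stress branches, 9 had one in all 6. Of 10 serine, one-carbon and sulfur amino acid enzymes, 5 had none in any library (Phgdh, Psat1, Aldh18a1, Pycr1 and Pck2), and of 8 amino acid transporters 4 had none (Slc7a1, Slc7a5, Slc7a11 and Slc1a5). These shares were close to the 54.2% of all genes.

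By upstream reach, 44 genes of the list could be tested, and 3 were called further in B6 (6.82%) and 1 further in MSM (2.27%), beside 4.8% and 0.829% of all genes. The balance reversed with each library centred on its median, which gave 1 call for B6 and 6 for MSM, and with equal covered length or without joining 1 gene was called for B6. Eif4ebp1, for a repressor of cap-dependent translation that ATF4 induces, reached 512 and 477 bp in B6, -182 and -27 bp in MSM, -127 bp in F1 BM and -110 bp in F1 MB. In B6 replicate 2 the domain ended at -252 bp in the downstream direction and so lay wholly upstream of the start, while in MSM and the hybrids it lay wholly downstream, so different domains were compared. Slc3a2, for the heavy chain of amino acid transporters, reached 840 and 565 bp in B6, -167 and -197 bp in MSM, 811 bp in F1 BM and 566 bp in F1 MB. Here too the domain of B6 replicate 2 lay wholly upstream, with a downstream reach of -186 bp, and those of MSM wholly downstream. Dele1, for a mitochondrial protein that signals to the eIF2 alpha kinase HRI, reached 1131 and 818 bp in B6, 521 and 548 bp in MSM, 791 bp in F1 BM and 785 bp in F1 MB. Hspd1, for the mitochondrial chaperonin HSP60, was the gene called for MSM, with 1766 and 1530 bp in B6, 2017 and 2015 bp in MSM, 2220 bp in F1 BM and 1151 bp in F1 MB. For Hspd1 too the domain of B6 replicate 2 lay wholly upstream, with a downstream reach of -113 bp. The MSM domains of Hspd1 spanned the start, with 1766 and 2605 bp downstream. Without B6 replicate 2 the list had 17 calls for B6, beside 26.0% of all genes, and without B6 replicate 1 it had 8 for MSM, beside 15.4% of all genes. The median difference, B6 minus MSM, was 19 bp over the list and 26 bp over all genes. Apart from Atf5, the ISR genes differed by 25.5 bp (Atf4), 241 bp (Trib3), -192 bp (Ppp1r15a) and -146 bp (Sesn2).

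**Figure D4:**
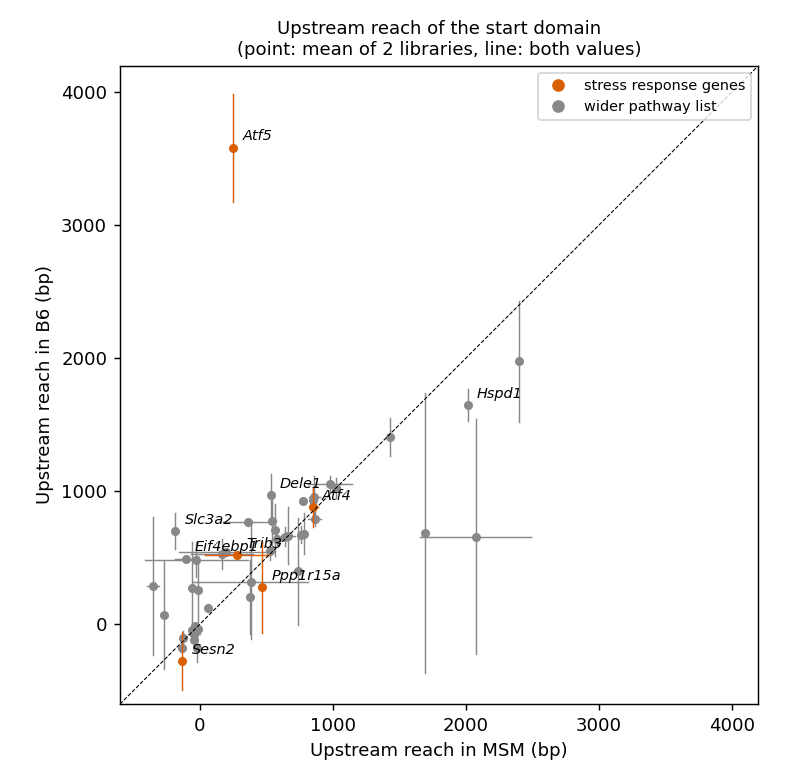
Upstream reach of the domain at the start (bp) in B6 (y axis) against MSM (x axis) for the 5 ISR genes and the 44 genes of the wider list with a domain in all 4 parental libraries. Points are means of 2 libraries, lines span both values and the dashed line marks equal reach. Atf5, with 3583.5 bp in B6 and 253 bp in MSM, lies furthest from that line. The set was chosen by this reach of Atf5, so its place is no result.

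Downstream, 4 of the 44 genes reached further in B6 (Psph, Sqstm1, Hspa9 and Oma1) and 4 further in MSM (Ppp1r15b, Slc38a2, Cth and Hspe1), 9.09% each, beside 5.65% and 2.16% of all genes. Psph, for the last enzyme of serine synthesis, reached 956 and 900 bp into the gene in B6, 70 and 68 bp in MSM, 1013 bp in F1 BM and 780 bp in F1 MB. Sqstm1, for the autophagy receptor p62, reached 1760 and 1102 bp in B6, 511 and 579 bp in MSM, 1667 bp in F1 BM and 1086 bp in F1 MB. At both genes the hybrids lay above MSM. Slc38a2, for an amino acid transporter that is induced in amino acid shortage, reached 2836 and 1724 bp in B6, 3387 and 3718 bp in MSM, 3905 bp in F1 BM and 3478 bp in F1 MB. Ppp1r15b, for the constitutive counterpart of GADD34, reached 3835 and 2634 bp in B6, 4161 and 4119 bp in MSM, 3839 bp in F1 BM and 2664 bp in F1 MB. Cth, for cystathionine gamma-lyase, reached 2247 and 1356 bp in B6 and 2466 and 2630 bp in MSM. At Hspa9 the values were 1127 and 1287 bp in B6 and 858 and 859 bp in MSM, and at Oma1 617 and 558 bp against 331 and 292 bp. Hspe1 shares the promoter region of Hspd1 on the other strand, so the calls of this pair are not independent.

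By covered length, 69 genes of the list could be tested, and 3 were called longer in B6 (4.35%) and 2 longer in MSM (2.90%), beside 5.5% and 2.44% of all genes. Slc6a9, for a glycine transporter, had 1465 and 776 bp under peaks in B6, 471 and 0 bp in MSM, 790 bp in F1 BM and 263 bp in F1 MB. Psph had 1684 and 1544 bp in B6, 246 and 626 bp in MSM, 1443 bp in F1 BM and 753 bp in F1 MB. Cbs, for cystathionine beta-synthase, had 5265 and 3393 bp in B6, 2800 and 3007 bp in MSM, 4983 bp in F1 BM and 3451 bp in F1 MB. The genes called for MSM were Hspd1, with 2999 and 2230 bp in B6, 3339 and 4306 bp in MSM, 4292 bp in F1 BM and 1884 bp in F1 MB, and its neighbour Hspe1. F1 BM, which had the longer list, was higher than F1 MB at all 5 of these genes.

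The genes whose upstream reach over the 6 libraries was most like that of Atf5 were sought among 4745 genes with a domain in all 6 libraries, as a description. The root mean square difference from Atf5 was 743 bp for H1f0, 987 bp for Agt, 1014 bp for Car3, 1025 bp for Gpbp1l1 and 1027 bp for Tmem69. H1f0, for a linker histone, reached 4659 and 3310 bp in B6, 1422 and 882 bp in MSM, 1768 bp in F1 BM and 1551 bp in F1 MB. Agt, for angiotensinogen, reached 1988 and 2035 bp in B6, 3 and 658 bp in MSM, 2077 bp in F1 BM and 741 bp in F1 MB. Their order over the libraries is fixed by this choice. None of the 5 genes was an ISR gene of the lists used here. Between the lowest B6 and the highest MSM value, Atf5 had a gap of 2912 bp, and the genes that followed had 2024 bp (Errfi1), 1888 bp (H1f0 and Gcat) and 1859 bp (Zmiz1).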

How the data were processed

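Livers were fixed with formaldehyde, and H3K9ac chromatin was precipitated and sequenced as read pairs. The sources used here name Trim Galore for trimming, Bowtie 2 (the study's methods) and HISAT2 (the submitters' processing notes) as mappers to mm10, SAMtools and MACS2. The threshold of the peak caller and the use of the input as control are not given in the sources used here, and the lowest −log10 q of the deposited lists was 1.30 to 1.35. Each peak in the deposited lists has a fold enrichment (a linear ratio), the −log10 of the p-value and of the q-value, and a score equal to the whole part of the −log10 q times a constant. The authors called peaks in each library on its own, without pooling. The lists hold no read counts, so depth was not used, and the length of each list was given in its place. The labels gave 12 samples, and the 6 input libraries were not analysed here.

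Peaks were compared with Python 3.11.15 and numpy 2.4.6 and drawn with matplotlib 3.10.9. Gene starts came from GENCODE M21, 1 for each symbol. Peaks up to 500 bp apart were joined into domains, and reach was the distance from the start to the edge of the nearest domain within 500 bp of it. Covered length was the length under peaks in the gene body and 5 kb either side of the start, and an overlap of 1 bp counted. A call needed both libraries of a strain 200 bp beyond both of the other. Single differences got a two-sided exact permutation test with 6 assignments of the parental libraries. The functions were tested on simulated data. The members, the wider list and the tests were chosen with earlier results of these data known. Named were the members, the genes that start in their regions, every called gene of the wider list and the 5 genes most like Atf5. Of the wider list Mars1 was not a symbol of the annotation, where the gene is Mars. The alternatives were equal list lengths, other joining distances, a −log10 q of at least 2, a 2 kb window, centring and leaving out each parental library.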

Additional observations from a re-analysis of the deposited data

How the results depend on the processing

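The Atf5 difference in upstream reach, B6 minus MSM, was 3330.5 bp as reported, 2115.5 bp with equal covered length in every list and 1357.5 bp without joining peaks. It ranged from 2924 to 3737 bp when each parental library was left out. The Atf5 difference in covered length was 1245 bp with equal covered length in every list, against 2280.5 bp, and ranged from 1814 to 2747 bp without each library. These values kept their direction under every alternative run. Leaving out a library could not turn it, because in both measures each B6 value lay above each MSM value. Atf5 had been chosen for this separation in reach, so the kept direction does not measure robustness. The share of the Atf5 middle stretch under peaks differed by 98.5 percentage points with equal numbers of peaks, equal length and a stricter q. It differed by 96.9 to 100 points without each library, and these alternatives were chosen after the data had been seen. The stretch was drawn from the edges of the start peaks, which these alternatives left in place. These values were thus fixed by that choice and do not measure robustness. The count of members with a peak in all libraries, 6 as reported, was 5 with equal numbers of peaks, with equal length and with a 2 kb window, and 6 under the other alternatives run.

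Leaving out B6 libraries changed the counts most. The number of members called longer in B6 ranged from 1 to 6, the highest without B6 replicate 2, where 66.3% of all genes were called so. Atf5, by whose values the set was chosen, is counted in each of these numbers. The number called longer in MSM ranged from 0 to 4, the highest without B6 replicate 1, where 45.3% of all genes were. In the wider list, genes called further upstream in B6 numbered 1 with equal length, without joining and with centring, against 3, and 3 to 17 without each library, the highest without B6 replicate 2 (26.0% of all genes). Those called for MSM numbered 6 with centring (8.70% of all genes), against 1, and 1 to 8 without each library, the highest without B6 replicate 1 (15.4% of all genes).

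Several differences at the other members changed direction. With equal numbers of peaks the difference was 62 bp at Atf4, -113.5 bp at Chac1 and -481.5 bp at Trib3 in covered length, and 58 bp at Ppp1r15a in upstream reach, each opposite in sign to the reported value. The same held for Ppp1r15a covered length with equal length (-30.5 bp) and with a 2 kb window (-17.5 bp), and for Atf4 upstream reach with centring (-127.5 bp). Without each library in turn, covered length differed by -1166 to 1103 bp at Atf4, -113.5 to 340.5 bp at Chac1, -556.5 to 1541.5 bp at Ddit3, -296.5 to 822.5 bp at Ppp1r15a, -1262.5 to 594.5 bp at Sesn2 and -179 to 425 bp at Trib3. Upstream reach differed by -122.5 to 173.5 bp at Atf4, -531 to 147 bp at Ppp1r15a and -366 to 74 bp at Sesn2. The cause of these reversals was not tested. Values that equal lists left without a peak or domain could not be formed.

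The sample titles and the study's methods do not say whether same-numbered libraries of the strains were processed together. Their deviations had a correlation of 0.083 over 11446 genes, which cannot settle this. With 2 pairs, a replicate block cannot change a mean difference (3330.5 bp for Atf5 reach and 2280.5 bp for its covered length). The SD of the paired differences was 557.9 bp for reach, beside a pooled SD of 406.7 bp, and 591.8 bp for covered length, beside 469.0 bp.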
